A study of Mus musculus with 8 samples.

Results

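The genes described here synthesize or consume nicotinamide adenine dinucleotide (NAD), and comprise Nmrk1, Nmrk2, Nampt, Nmnat1, Nmnat3, Nadsyn1, Parp1, Cd38, Sirt1 and Nnt. These 10 genes were chosen by their role in NAD metabolism and on the measured difference between MI and sham-operated mice, in which Nmrk2 had the largest rise, so that their differences are given as a description and without a test. Probes were assigned to a gene through their RefSeq transcript, and the brightest probe retained for a gene was used. Of the 10 genes, 9 had a retained probe, among 15156 genes with a retained probe in all. No probe was paired with Nnt, the proton-pumping transhydrogenase of mitochondria, through the annotation used here, and Nnt was not analysed here. Each of the 9 genes had 1 probe, which was well above background on all 8 arrays, so that the detection limit of 4 arrays kept or dropped none of them narrowly.

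Total RNA was taken from the ventricles of male mice of the C57BL\6 background (substrain not given), 24 hours after surgery. In 4 MI mice, myocardial infarction (MI) was induced by a permanent occlusion of the anterior interventricular artery, and the 4 sham-operated mice had no infarction induced. By the paper, mice of both groups had an imaging exam by FDG-PET 24 hours after surgery. For this exam, mice were injected with Acipimox and FDG and kept under isoflurane. The part of these treatments in the values was not tested. Each mouse was measured on 1 array of the mouse SurePrint G3 type with RNA labeled in 1 colour. The comparison asks how the transcripts of the heart differ between infarcted and sham-operated mice at this time. Since the RNA came from whole ventricles, fewer cells of a type and less RNA per cell cannot be told apart.

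NAD carries electrons between the oxidation of fuels and the respiratory chain, and a working heart holds one of the large NAD pools of the body. Since sirtuins, poly-ADP-ribose polymerases and CD38 cleave NAD and release nicotinamide, the pool has to be rebuilt continuously. In the main salvage route, the nicotinamide phosphoribosyltransferase Nampt turns nicotinamide into nicotinamide mononucleotide. The kinases Nmrk1 and Nmrk2 make the same mononucleotide from nicotinamide riboside, and the Nmnat enzymes then form NAD. Nmrk2 is the kinase found in striated muscle, whereas Nmrk1 is widely expressed.

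The promoters of both riboside kinases and of Nampt are shown because Nmrk2 had the highest difference between the groups and Nampt the lowest, while Nmrk1 is the sister kinase of Nmrk2. Each sequence holds the 250 bases before the RefSeq start site (5′ to 3′ on the strand of the gene, build GRCm38.p6): chr10:81202038-81202287 on the minus strand for Nmrk2, chr19:18631766-18632015 on the plus strand for Nmrk1 and chr12:32820085-32820334 on the plus strand for Nampt. Capitals mark the TATA box (TATAAA) and the GC box (GGGCGG), read on both strands.
Nmrk2: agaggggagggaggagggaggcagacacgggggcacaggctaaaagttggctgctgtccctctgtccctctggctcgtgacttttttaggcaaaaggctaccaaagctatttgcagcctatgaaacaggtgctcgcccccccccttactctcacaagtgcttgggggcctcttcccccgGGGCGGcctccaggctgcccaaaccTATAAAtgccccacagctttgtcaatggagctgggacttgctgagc
Nmrk1: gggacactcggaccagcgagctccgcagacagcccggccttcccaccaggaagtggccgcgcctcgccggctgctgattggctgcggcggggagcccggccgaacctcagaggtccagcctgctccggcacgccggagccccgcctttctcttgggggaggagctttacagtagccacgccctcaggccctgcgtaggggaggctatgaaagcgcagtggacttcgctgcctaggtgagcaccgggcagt
Nampt: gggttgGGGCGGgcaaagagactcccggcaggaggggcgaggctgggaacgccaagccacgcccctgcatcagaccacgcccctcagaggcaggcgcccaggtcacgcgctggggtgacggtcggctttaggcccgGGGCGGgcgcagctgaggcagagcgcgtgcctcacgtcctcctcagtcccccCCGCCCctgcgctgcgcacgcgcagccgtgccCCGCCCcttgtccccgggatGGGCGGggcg

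TATAAA was found once before Nmrk2, where it began 46 bases before the start site, and in none of the promoters of the other 8 genes. Of 32851 RefSeq promoters of the same length, 12.4% held this motif on either strand. The promoter of Nampt held 5 matches to GGGCGG, that of Nmrk2 held 1 and that of Nmrk1 held 0, whereas 32.7% of all promoters held at least 1. CG dinucleotides numbered 5 before Nmrk2, 21 before Nmrk1 and 27 before Nampt, with a median of 6 over all promoters. None of these 3 promoters held the E-box CACGTG, the AP-1 site TGAGTCA, the M-CAT element CATTCC or the GATA site AGATAA, which were present in 6.02%, 4.46%, 12.6% and 9.99% of all promoters. These matches describe the letters of the windows only.

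All signal values below are log2 intensities on the between-array normalization of the study, and each difference is the MI mean minus the sham mean on that log2 scale with its standard error (SE) from limma. The share of spots well above background ranged over the arrays from 58.6% to 66.4%. Correlations between arrays of the same group were between 0.990 and 0.995. The median log2 signal of the retained probes varied between arrays from 7.38 to 8.0, and the arrays of MI replicate 2 (7.42) and sham replicate 2 (7.38) had the lowest medians. The median difference over the 34038 retained probes was 0.12, and it was -0.02 when each array was scaled to its 75th percentile. Both scalings are therefore given for part of the genes, and values without a named scaling are those of the normalization of the study. For the listed genes given below in that normalization only, 75th percentile scaling gave differences of 5.34 (Nmrk2), -0.23 (Nmnat1), -0.17 (Parp1) and -0.14 (Sirt1).

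Nmrk2, the muscle riboside kinase, was higher in MI mice than in sham-operated mice by more than any other retained probe. Its log2 signal in MI mice was 15.14, 15.67, 15.64 and 15.25 in replicates 1 to 4. In sham-operated mice it was 9.84, 10.41, 10.09 and 9.57. Every MI mouse was far above every sham-operated mouse, with 4.73 log2 units between the lowest MI mouse and the highest sham-operated mouse, and MI replicates 2 and 3 had the highest signals.

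The group means were 15.42 ± 0.27 (SD, n = 4) in MI hearts against 9.98 ± 0.36 (SD, n = 4) in sham hearts. The difference was 5.45 (SE 0.22), which corresponds to 43.6-fold, and it ranked 1 of 34038 probes. On the linear scale, the mean processed intensity was 47878 in MI hearts and 973 in sham hearts, and no Nmrk2 spot was saturated. The slide held 2 rows of arrays with both groups in each, and the difference was 5.28 in row 1 and 5.61 in row 2. Across 6 normalizations it lay between 5.20 and 5.47.

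Nmrk1, the widely expressed riboside kinase, had a difference of the opposite sign. Its log2 signal was 6.79, 5.98, 6.60 and 6.75 in MI hearts and 7.07, 6.66, 6.92 and 7.02 in sham hearts. The groups overlapped, since MI replicates 1 and 4 lay above sham replicate 2. The difference was -0.39 (SE 0.22). After 75th percentile scaling it was -0.59 (SE 0.14), and all MI mice were then below all sham-operated mice. The log2 ratio of Nmrk2 to Nmrk1 within an array does not depend on the scale given to that array, and relative to its sham mean it was between 5.28 and 6.63 in MI hearts and between -0.52 and 0.69 in sham hearts. This pair, like the other ratios below, was chosen after the values were seen.

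**Figure D1:**
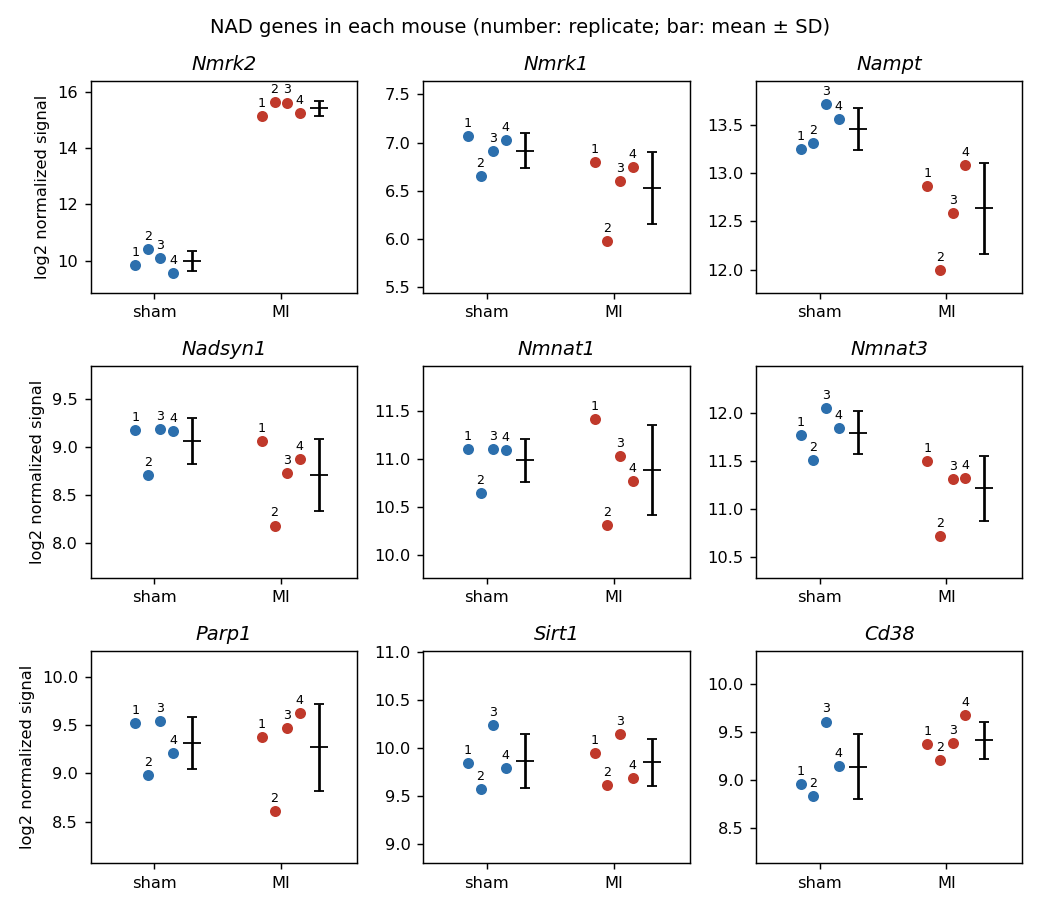
Log2 normalized signal (vertical axes, whose ranges differ between panels) of the 9 measured NAD genes in 4 sham-operated mice (blue) and 4 MI mice (red), with the replicate number above each point and the mean ± SD beside each group. Nmrk2 separates widely, Nampt and Nmnat3 are lower in all MI mice, and the groups of the other 6 genes overlap.

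Nampt, the rate-limiting enzyme of nicotinamide salvage, was lower in MI mice. The log2 signals were 12.87, 12.00, 12.59 and 13.09 in MI hearts and 13.25, 13.31, 13.72 and 13.56 in sham hearts. All MI mice were below all sham-operated mice, although MI replicate 4 and sham replicate 1 were only 0.16 apart. The means were 12.64 ± 0.47 (SD, n = 4) and 13.46 ± 0.22 (SD, n = 4). The difference of -0.83 (SE 0.23) corresponds to a 1.77-fold lower signal, and it was -0.95 (SE 0.19) after 75th percentile scaling. A lower difference was found for 342 of the 34038 retained probes. The difference was -0.85 in row 1 and -0.80 in row 2, and leaving out single mice gave values between -0.98 and -0.61.

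The log2 ratio of Nmrk2 to Nampt within an array compares the enzymes of both salvage routes without the array scale. Relative to its sham mean, it was 5.75, 7.15, 6.53 and 5.65 in MI hearts and between -0.51 and 0.58 in sham hearts. The mean of this ratio differed by 6.27 between the groups, with an SD of 0.71 within MI mice and 0.46 within sham-operated mice. Since Nmrk2 and Nampt had the highest and lowest differences of the listed genes, this ratio is a description only.

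Nadsyn1, the NAD synthetase that completes the routes from tryptophan and nicotinic acid, showed a smaller difference. The mice gave log2 signals of 9.06, 8.18, 8.73 and 8.87 in MI hearts and 9.17, 8.70, 9.19 and 9.17 in sham hearts. The groups overlapped because sham replicate 2 lay below MI replicates 1, 3 and 4. The difference was -0.35 (SE 0.22). After 75th percentile scaling it was -0.49 (SE 0.12), and the groups no longer overlapped.

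The Nmnat enzymes form NAD from the mononucleotide, Nmnat1 in the nucleus and Nmnat3 in mitochondria. The log2 signal of Nmnat3 was 11.5, 10.72, 11.31 and 11.32 in MI hearts and 11.77, 11.51, 12.05 and 11.84 in sham hearts. All MI mice were below all sham-operated mice, with MI replicate 1 and sham replicate 2 almost touching. The difference was -0.58 (SE 0.22), which corresponds to 1.5-fold, and it was -0.71 (SE 0.11) after 75th percentile scaling. The log2 signal of Nmnat1 was 11.42, 10.31, 11.03 and 10.78 in MI hearts and 11.10, 10.64, 11.10 and 11.09 in sham hearts, and MI mice lay on both sides of the sham-operated mice. Its difference was -0.10 (SE 0.23), and it was positive without MI replicate 2 (0.09). Within arrays, the log2 ratio of Nmnat3 to Nmnat1 relative to its sham mean was between -0.73 and -0.26 in MI hearts and between -0.14 and 0.14 in sham hearts. The groups overlapped for the ratio of Nampt to Nmnat1 (-1.03 to -0.16 in MI hearts, -0.33 to 0.19 in sham hearts). They also overlapped for Nampt to Nmnat3 (-0.39 to 0.10 in MI hearts, -0.19 to 0.13 in sham hearts). Ratios of Cd38 to Parp1 and to Sirt1 overlapped too, whereas that of Nampt to Sirt1 did not.

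Among the enzymes that consume NAD, none of those listed separated the groups. Parp1, the polymerase that responds to DNA strand breaks, had a log2 signal of 9.38, 8.61, 9.48 and 9.63 in MI hearts and of 9.53, 8.98, 9.54 and 9.21 in sham hearts. Its difference was -0.04 (SE 0.23), and it was -0.26 in row 1 and 0.18 in row 2. Sirt1, a nuclear deacetylase that depends on NAD, had a log2 signal of 9.96, 9.62, 10.14 and 9.69 in MI hearts and of 9.85, 9.57, 10.24 and 9.80 in sham hearts. Its difference was -0.01 (SE 0.21), and the mice of both groups were mixed in order. Differences of Parp1 and Sirt1 changed sign when single mice were left out, between -0.16 and 0.18 for Parp1 and between -0.11 and 0.11 for Sirt1. Cd38, the main cell-surface NAD glycohydrolase, also found on leukocytes, had a log2 signal of 9.38, 9.21, 9.38 and 9.68 in MI hearts and of 8.96, 8.83, 9.61 and 9.14 in sham hearts. Its difference was 0.28 (SE 0.22) and 0.16 (SE 0.17) after 75th percentile scaling, and sham replicate 3 lay above 3 of the 4 MI mice.

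**Figure D2:**
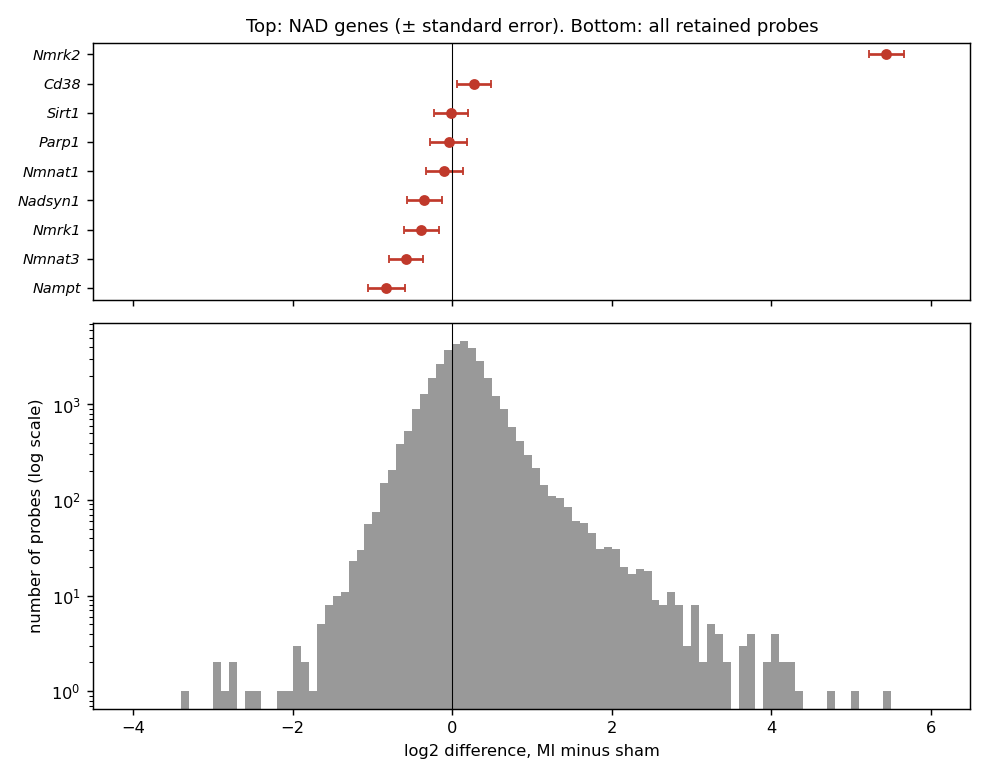
Log2 differences (MI minus sham, horizontal axis) of the 9 measured NAD genes with their standard errors (top) and the number of probes at each difference among all 34038 retained probes (bottom, log scale). Nmrk2 lies at the right end of the distribution at 5.45 and Nampt in its lower part at -0.83, while Parp1, Sirt1, Nmnat1 and Cd38 lie near its centre.

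Since the genes were chosen with this contrast known, the counts of genes that passed the thresholds only describe the list. At a fold over 2 and an adjusted p under 0.05, 1 of the 9 genes was higher (Nmrk2) and 0 were lower, beside 3.48% of all retained probes (3.07% higher and 0.405% lower). At any fold, 1 was higher and 1 was lower (Nampt), beside 7.61% of all retained probes (6.3% higher and 1.31% lower). After 75th percentile scaling, 1 was higher and 0 were lower past 2-fold, beside 4.24% of all retained probes (3.06% higher and 1.18% lower). At any fold in that scaling, 1 was higher and 4 were lower (Nampt, Nmnat3, Nmrk1 and Nadsyn1), beside 17.5% of all retained probes (8.7% higher and 8.84% lower). By number, the retained probes then passed as 2963 higher and 3010 lower, whereas they passed as 2144 higher and 446 lower in the normalization of the study. The count at any fold was 1 in place of 2 without MI replicate 2, without sham replicate 3 and without sham replicate 4, each time because Nampt missed the threshold. Groups that did not overlap were found for 3 of the 9 genes in the normalization of the study, beside 11.2% of all retained probes (8.46% with MI above sham and 2.7% with MI below sham), and for 5 of the 9 after 75th percentile scaling, beside 23.7%.

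The direction of the difference of each of the 9 genes was the same under all 6 normalizations. The largest spread between normalizations was that of Nmrk1, with differences between -0.64 and -0.13. Those of Nampt lay between -0.95 and -0.80 and those of Nmnat3 between -0.71 and -0.53.

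**Figure D3:**
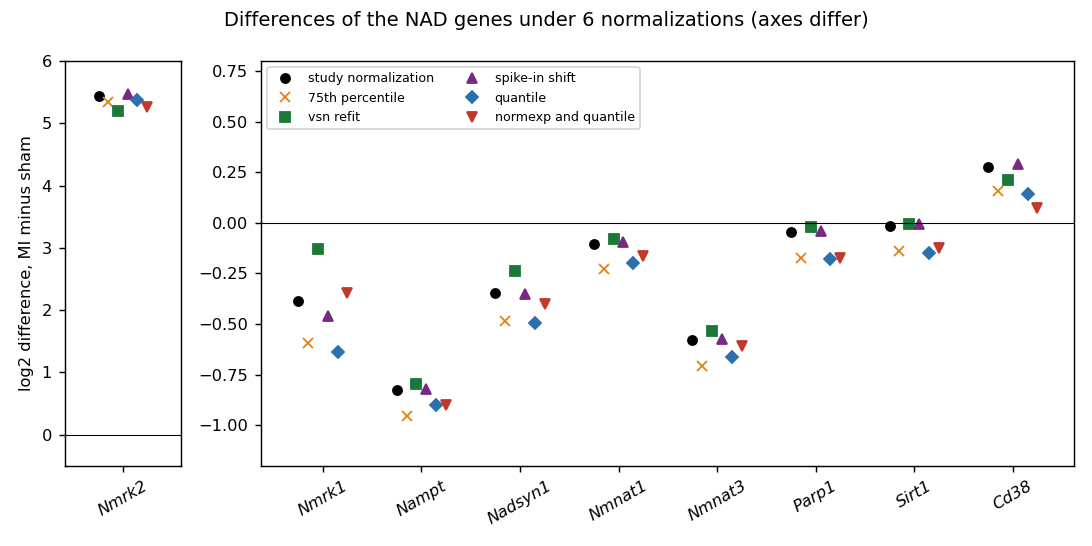
Log2 difference (MI minus sham, vertical axes with different ranges) of each measured NAD gene under 6 normalizations, shown by symbol. Nmrk2 stays between 5.20 and 5.47, Nampt and Nmnat3 stay below -0.5 under all 6, and Parp1 and Sirt1 stay close to 0.

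MI replicate 2 had the lowest signal of the MI mice for all 8 measured genes other than Nmrk2, but had the highest Nmrk2 signal. Sham replicate 2 had the lowest signal of the sham-operated mice for 7 of the 8. These are the arrays with the lowest medians, and after 75th percentile scaling the counts were 3 of 8 for MI replicate 2 and 0 of 8 for sham replicate 2.

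Markers of other cell types were measured beside the NAD genes. Of 8 neutrophil markers, 7 passed at any fold and 6 of these at over 2-fold, all higher in MI mice, with a median difference of 2.80. The mean log2 signal of these markers was between 9.81 and 10.86 in MI hearts and between 7.70 and 8.04 in sham hearts, and it was highest in MI replicates 2 (10.86) and 3 (10.78), in which Nmrk2 was also highest. S100a9 and S100a8, abundant proteins of neutrophils, were higher by 2.79 (SE 0.21) and 3.02 (SE 0.22). Ngp, among the markers past 2-fold, was well above background on 4 MI and 0 sham arrays, so that only the MI mice kept it. Ltf, which passed at any fold, was well above background on 4 MI and 2 sham arrays. Ngp and Ltf were named after their values were seen. Among all retained probes, 6.3% were higher at any fold and 3.07% past 2-fold. The part of neutrophils in the differences of the NAD genes was not tested.

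The other lists held fewer genes that passed. Among 9 cardiomyocyte markers 0 passed, and 8 of the 9 had differences below 0, with a median of -0.07. Actc1 and Myl2, the brightest of them, differed by 0.29 (SE 0.21) and -0.08 (SE 0.22). After 75th percentile scaling the median was -0.19 and 1 of the 9 was lower, namely Pln, the phospholamban gene, by 0.68 on the log2 scale (adjusted p = 0.0064 by limma). In the monocyte and macrophage list, 1 of 6 measured markers passed (Ccr2, higher, named after its value was seen). Differences were above 0 for 4 of the 6 and below 0 for 2. The brightest, Itgam and Csf1r, differed by 0.14 (SE 0.24) and -0.16 (SE 0.23). No probe was paired with Cd68 or Ly6c2 through the annotation used here. In the smooth muscle list 1 of 4 passed (Acta2, higher by 1.46), with 2 differences above 0 and 2 below. Tagln, the brightest after Acta2, differed by -0.07 (SE 0.21). Counts of 0 were found for 7 fibroblast, 5 endothelial, 5 lymphocyte and 11 clock genes. At an unadjusted p under 0.05, 1 cardiomyocyte, 2 fibroblast, 1 endothelial, 2 lymphocyte and 4 clock genes and 1 gene of fast skeletal muscle passed, and significance analysis of microarrays passed 0 of these lists' genes. After 75th percentile scaling, 1 endothelial gene was higher (Pecam1) and 1 clock gene was lower (Nr1d2), and the fibroblast and lymphocyte genes still numbered 0. Pln, Pecam1 and Nr1d2 were named after their values were seen. Of 10 markers of fast skeletal muscle, a tissue in which Nmrk2 is also found, 5 were retained and 0 of these passed, whereas Myh1, Myh2, Myh4, Actn3 and Mylpf were not retained. The counts for these lists come from limma with adjustment over all retained probes. They stand beside 7.61% of all retained probes at any fold, and beside 17.5% after 75th percentile scaling. In lists of this size, counts of 0 or 1 cannot be told apart from these shares.

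The wider NAD pathway was described with 66 further genes, of which 58 had a retained probe. Past 2-fold, 2 of the 58 were higher in MI mice (Mthfd2 and Bst1) and 1 was lower (Art4), beside 3.48% of all retained probes (3.07% higher and 0.405% lower). At any fold, 3 were higher and 3 were lower (with Nadk added among the higher, Sirt4 and Oard1 among the lower), beside 7.61% of all retained probes. After 75th percentile scaling 5 were higher and 10 were lower, beside 17.5% of all retained probes. The median difference of the 58 genes was 0.07, beside 0.12 over all retained probes, and -0.06 beside -0.02 after 75th percentile scaling.

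Mthfd2, a mitochondrial enzyme of folate metabolism that uses NAD, had the largest rise of these 58 genes. Log2 signals were 7.82, 7.61, 8.12 and 8.2 in MI hearts and 6.69, 6.15, 6.20 and 6.27 in sham hearts. The groups were well apart, and the difference was 1.61 (SE 0.21), or 3.05-fold, with an adjusted p of 7.38e-06 by limma. It was 0.67 after the vsn refit and 0.92 after normexp correction with quantile normalization, the lowest of the normalizations. The vsn refit had additive constants of 165 to 256 intensity units, beside 3.16 to 19.6 in the normalization of the study. The mean processed intensity of Mthfd2 was 250 in MI hearts and 68 in sham hearts. The part of the constants in the lower difference was not tested. Nadk, the cytosolic kinase that turns NAD into NADP, was higher by 0.87 (SE 0.21, adjusted p = 0.00908 by limma), with groups that did not overlap. Its second probe gave 0.40 (SE 0.22, adjusted p = 0.320 by limma), so that the probes of Nadk did not both pass. The other 5 genes of the list of NAD kinases and mitochondrial NADPH sources did not pass.

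Bst1, also called CD157, is a paralog of Cd38 and an ADP-ribosyl cyclase of myeloid and stromal cells. Its log2 signal was 9.66, 9.33, 9.34 and 9.64 in MI hearts and 8.30, 7.83, 8.44 and 8.2 in sham hearts. All MI mice were above all sham-operated mice. The difference was 1.3 (SE 0.21, adjusted p = 0.000109 by limma), and its second probe gave 1.15 (SE 0.20). After the vsn refit the difference was 0.91, so that Bst1 did not pass 2-fold there. The neutrophil markers given above moved in the same direction, and their part in the rise of Bst1 was not tested. Whether the differences of Bst1 and Cd38 differ was not tested.

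Art4, an ADP-ribosyltransferase of the cell surface, was lower in MI mice. The log2 signals were 11.53, 10.26, 11.35 and 11.47 in MI hearts and 12.73, 11.97, 12.49 and 12.48 in sham hearts, without overlap. The difference was -1.27 (SE 0.25, adjusted p = 0.00153 by limma), and its second probe gave -0.91 (SE 0.28). Without MI replicate 2 the difference was -0.97, so that Art4 no longer passed 2-fold. The other 3 measured genes of this list did not pass.

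Among the 6 sirtuins other than Sirt1, 1 passed. Sirt4, a sirtuin of mitochondria, had a log2 signal of 8.84, 8.22, 8.56 and 9.18 in MI hearts and of 9.30, 9.37, 9.77 and 9.42 in sham hearts. All MI mice were below all sham-operated mice, and the difference was -0.77 (SE 0.22, adjusted p = 0.0331 by limma). The second probe of Sirt4 gave -0.61 (SE 0.24, adjusted p = 0.125 by limma). Sirt5, another mitochondrial sirtuin, differed by -0.61 (SE 0.24, adjusted p = 0.129 by limma), and by -0.73 with an adjusted p of 0.00752 after 75th percentile scaling.

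Oard1, which removes ADP-ribose from glutamate residues, was the only one of 6 genes for the removal of ADP-ribose that passed. Signals on the log2 scale were 10.10, 9.43, 9.80 and 10.21 in MI hearts and 10.57, 10.44, 10.91 and 10.60 in sham hearts. The groups did not overlap, and the difference was -0.75 (SE 0.22, adjusted p = 0.032 by limma). Macrod2, of the same list, had differences of -0.55, 0.15, -0.10 and -0.39 by its 4 probes, none of which passed. The adjusted p of Sirt4 and that of Oard1 missed the threshold without MI replicate 2 (0.0757 and 0.0644), without MI replicate 3 (0.0829 and 0.0782), without sham replicate 3 (0.101 and 0.0965) and without sham replicate 4 (0.0578 and 0.0666). It also missed the threshold after the vsn refit (0.0847 and 0.0535), after the spike-in shift (0.0906 and 0.0887) and without a filter (0.213 and 0.194), and neither gene passed by significance analysis of microarrays.

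The remaining 5 lists held 0 genes that passed in the normalization of the study, by limma and by significance analysis of microarrays. At an unadjusted p under 0.05, 1 gene each passed of the kynurenine route, the salvage and transport genes and nicotinamide clearance, and 0 of the polymerases and the NADH shuttles. Of the kynurenine route from tryptophan, 4 of 9 genes were measured, and Haao, its dioxygenase before quinolinate, differed by 0.61 (SE 0.21, adjusted p = 0.0791 by limma) and Afmid, the arylformamidase, by 0.44 (SE 0.22). Tdo2, Ido1, Ido2, Kynu and Acmsd were not retained. Of 6 measured salvage and transport genes, Pnp, a nucleoside phosphorylase that can also split nicotinamide riboside, differed by 0.53 (SE 0.21, adjusted p = 0.134 by limma), and its close paralog Pnp2, whose probe may share its target, by 0.43 (SE 0.22). Both Haao and Pnp passed after 75th percentile scaling (adjusted p of 0.0155 and 0.0288 by limma).

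Nnmt, which methylates nicotinamide for excretion, differed by -0.07 (SE 0.20), and Aox1, which oxidizes the methylated product, by -0.76 (SE 0.28, adjusted p = 0.0941 by limma). Among 13 measured poly- and mono-ADP-ribose polymerases other than Parp1, Parp10 and Tiparp had the smallest p, with differences of 0.39 (SE 0.21) and 0.39 (SE 0.21). Among 9 genes of the NADH shuttles, these were Gpd1 (0.39, SE 0.23), the glycerol-3-phosphate dehydrogenase, and Got2 (0.24, SE 0.22), the mitochondrial aspartate aminotransferase. Adjusted p by limma was at least 0.310 for each of these 4 genes. The genes added as lower after 75th percentile scaling were Aox1, Sirt5 and Macrod2 and, named after their values were seen, Nadk2, Sirt3, Art5 and Slc25a13. Sirt3, Sirt4 and Sirt5 were thus all lower in that scaling, by 0.55, 0.91 and 0.73 on the log2 scale. Sirt2, Sirt6 and Sirt7, also named after their values were seen, had differences of 0.14, 0.33 and 0.23 in that scaling and did not pass. In the normalization of the study, the probes used gave 0.45 for Sirt6 and 0.35 for Sirt7. The second probe of Sirt6 gave 0.50 (SE 0.23, adjusted p = 0.227 by limma). That of Sirt7 gave 0.73 (SE 0.23, adjusted p = 0.0521 by limma).

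**Figure D4:**
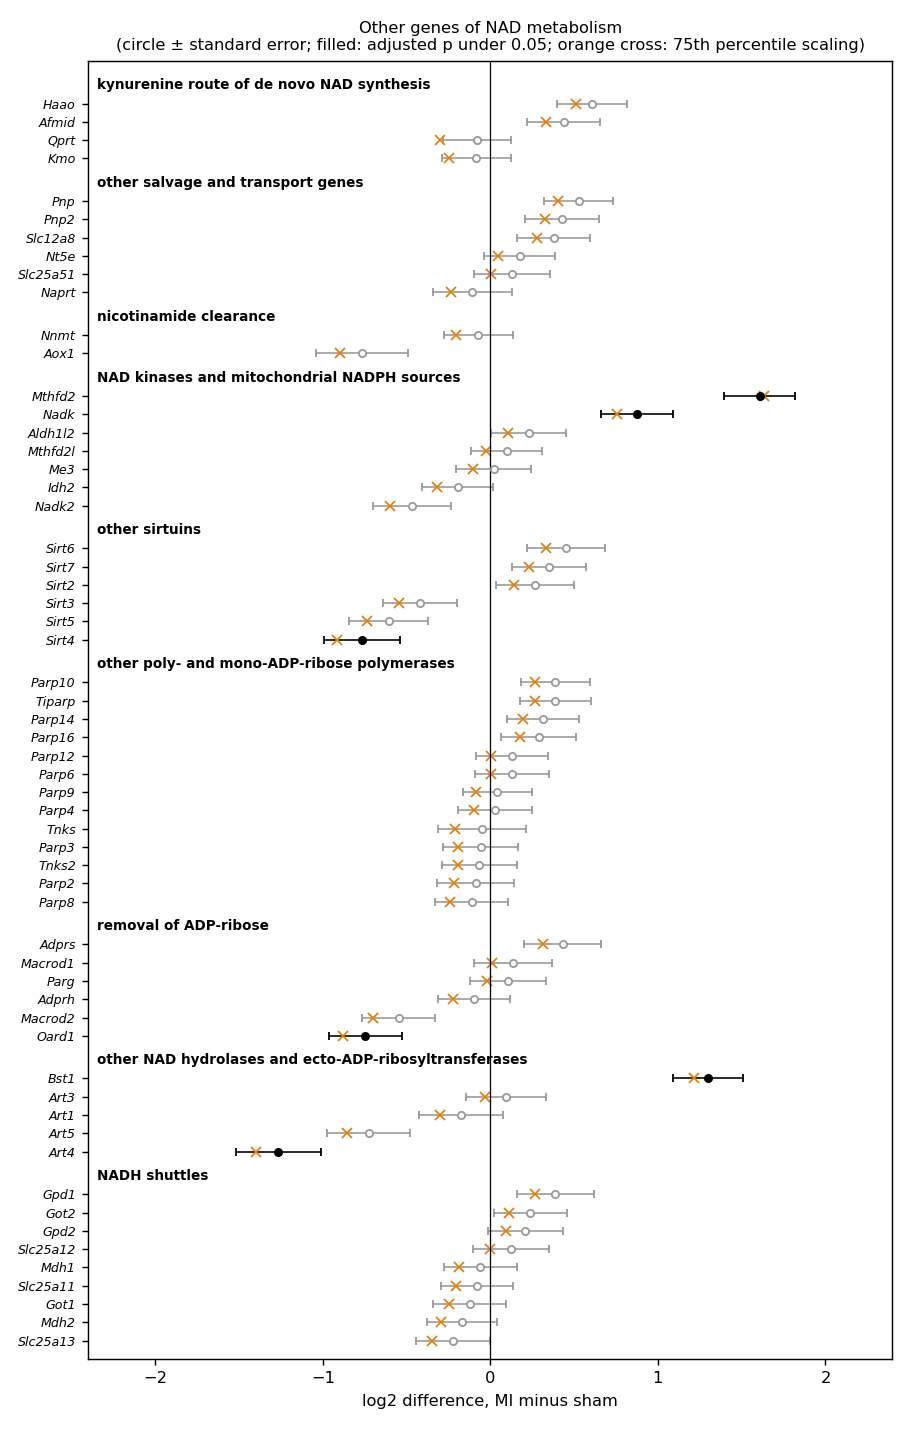
Log2 difference (MI minus sham, horizontal axis) of 58 further genes of NAD metabolism by list, with circles and standard errors for the normalization of the study (filled where the adjusted p was under 0.05) and orange crosses for 75th percentile scaling. Mthfd2 (1.61), Nadk (0.87) and Bst1 (1.3) lie to the right and Art4 (-1.27), Sirt4 (-0.77) and Oard1 (-0.75) to the left, while the crosses lie to the left of the circles by a median of 0.12 (a shift of -0.12 on the log2 scale).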

How the data were processed

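Ventricular RNA of 8 mice (4 MI, 4 sham) was hybridized with spike-in RNA to 8 arrays on 1 slide. The deposited intensities are, per the file headers, processed signals from which Feature Extraction 11.0.1.1 had subtracted the background. The authors' log2 values came from spots well above background, normalized on spike-in probes with limma and vsn. Setting these against the deposited intensities recovered the scale of each array and its additive constant (3.16 to 19.6 intensity units), which were applied to every spot. Spots with outlier flags were dropped and spots of a probe averaged, and the 34038 probes that were no controls and were well above background on at least 4 arrays were kept. Where a gene had several, the brightest was used.

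Groups came from the labels, which do not state that replicates were processed separately, so that SE and p cover the spread between 8 arrays, whose number limits the precision. limma 3.58.1 (R 4.3.3) was fitted without covariates, with Benjamini-Hochberg adjustment over all retained probes. It was tested on simulated data. Other steps used Python 3.11.15. Probe names came from RefSeq accessions and promoters from RefSeq (GRCm38.p6), with 9 of 10 genes matched. Of the further genes, those past 2-fold and the 2 with the smallest p of each list were named. The listed genes, lists and rules were chosen with earlier results of these data known. Alternatives were 75th percentile scaling, a new vsn fit to the spike-in spots (the vsn refit), the spike-in shift without constants, quantile normalization alone or after normexp correction (offset 50), other filters, significance analysis of microarrays, an unmoderated test, blocks for replicate number or array row, and each mouse left out.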

Additional observations from a re-analysis of the deposited data

Results flagged for a closer look

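In 3 of 30 groups of 4 mice examined, a single mouse stood apart from the others by the criterion of Dixon, which chance meets in about 1 of 20 groups. For Nmnat1 in sham-operated mice, replicate 2 (10.64) lay below the others (11.09 to 11.10), and the gap took up 0.972 of the range of the group. For Nadsyn1 in sham-operated mice, replicate 2 (8.70) lay below the others (9.17 to 9.19), with a gap of 0.956 of the range. For Art4 in MI mice, replicate 2 (10.26) lay below the others (11.35 to 11.53), with a gap of 0.863 of the range. These are the arrays with the lowest median signals, and after 75th percentile scaling sham replicate 2 was within the range of the other sham-operated mice for Nmnat1 (11.02 beside 10.92 to 11.21) and for Nadsyn1 (9.04 beside 9.0 to 9.26). For Art4, MI replicate 2 was still below the other MI mice after that scaling (10.59 beside 11.07 to 11.37).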

How the results depend on the processing

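The Nmrk2 difference kept its direction under every alternative run, between 5.20 and 5.59. Of the 9 listed genes, chosen with this contrast known, 1 passed 2-fold throughout, beside 0.981% to 4.47% of all probes. These counts only describe the list. At any fold, 2 of the 9 passed, beside 7.61% of all retained probes. The count was 5 after 75th percentile scaling (17.5%), quantile normalization (18.0%) or normexp correction (20.6%). It was 1 after the vsn refit (3.73%), the spike-in shift (5.47%), no filter (1.78%), significance analysis of microarrays (5.14%) or the unmoderated test (2.20%). Single mice left out gave 1 to 2, beside 5.53% to 9.44% of all probes. Of the 58 further genes, 3 passed 2-fold, beside 3.48% of all retained probes, against 1 after the vsn refit (0.981% of all probes). The count past 2-fold was 2 after normexp correction (1.58%), without a filter (1.67%) or with the unmoderated test (1.70%). Without MI replicate 2, 3 were higher and 0 lower past 2-fold (3.91%). At any fold 6 passed, beside 7.61% of all retained probes, against 15 after 75th percentile scaling (17.5% of all probes), 14 after quantile normalization (18.0%), 16 after normexp correction (20.6%), 2 without a filter (1.78%), 2 with the unmoderated test (2.20%), 12 with the replicate number as a block (14.4%), and 4 after the vsn refit (3.73%), the spike-in shift (5.47%) or significance analysis of microarrays (5.14%). Under these alternatives, the counts at any fold moved in the same direction as the share of all probes. Single mice left out gave 4 to 8, and these counts did not follow the share throughout. The count rose to 8 beside a lower share when MI replicate 1 (6.20%) or sham replicate 2 (6.62%) was dropped. It stayed at 6 beside 9.44% for MI replicate 2, 8.50% for sham replicate 1 and 7.68% for MI replicate 4. It was 4 beside 5.53% for MI replicate 3, 6.38% for sham replicate 3 and 6.19% for sham replicate 4. The cause was not tested. More probes enter both the fit and the adjustment without a filter (55681 against 34038), and the part of each was not tested. Without a filter, the adjusted p by limma was 0.0523 for Art4 and 0.0871 for Nadk. Over all alternatives, no difference of a gene past the threshold changed sign. Replicates of the same number correlated by 0.24, 0.29, 0.14 and 0.01 in their deviations from the group means, so that 1 of the 4 pairs was not over 0.1 and the numbers were not taken to pair the mice. Replicates 3 and 4 correlated better with another number than with their own. With the replicate block the Nmrk2 difference was 5.45. At any fold, 3 of the 9 listed genes then passed (1 higher, 2 lower) in place of 2, with Nmnat3 added, beside 14.4% of all probes. The signal over background of dim probes limits small differences, such as that of Nmrk1.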
